A study of Caenorhabditis elegans with 6 samples.

Results

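Fasting lipases of Caenorhabditis elegans were measured as 8 genes: lipl-1, lipl-2, lipl-3, lipl-4, lipl-5, fil-1, fil-2 and atgl-1. They were chosen by name, as every probe set whose platform gene symbol is one of these. Each of the 8 is read by 1 probe set that carries no other gene, out of 25478 genes with a probe set of their own. RNA of whole wild-type N2 hermaphrodites was hybridised to 6 one-colour Affymetrix arrays, 3 from control and 3 from exposed worms. All worms grew on plates with Escherichia coli OP50 for 48 h to the L4 larval stage and then spent 24 h at 20 °C in 50% M9, a salt buffer. The exposed worms had 500 µg/mL of BSA-SPIONs in that buffer, superparamagnetic particles of iron oxide covered by 1 layer of bovine serum albumin, and the controls had the buffer alone. The labels name no bacteria in the buffer for either group. No array of worms kept on food, of albumin alone or of uncoated particles was analysed here, so what both groups share (the time in buffer) was not measured, and effects of iron oxide and albumin cannot be told apart. The labels do not say that replicates came from separate cultures, and the p-values then reflect the spread between 3 samples a group, part or all of which may be technical.

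Worms store fat as triglyceride in droplets of the intestine and hypodermis, and lipases release fatty acids from it. The lipl genes encode lipases of the lysosomal acid lipase family, which act on fat delivered to lysosomes, partly through autophagy (lipophagy). In fed worms the transcription factor MXL-3 represses several of them, and in fasting worms HLH-30, the worm homolog of TFEB, activates them. The genes fil-1 and fil-2 encode fasting-induced lipases whose induction was linked to the endoplasmic reticulum stress sensor IRE-1 and the chaperone HSP-4. The gene atgl-1 encodes the homolog of mammalian adipose triglyceride lipase, which works at the surface of lipid droplets and is controlled by protein kinases.

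No fasting lipase gene passed the adjusted threshold, and 7 of the 8 had a log2 estimate between 0.36 and 0.85 above control, or 1.28-fold to 1.80-fold. The eighth, atgl-1, had an estimate of 0.02, whose sign turned under 5 alternatives named below. Values are log2 RMA values as deposited, and a gene was called at an adjusted p under 0.05 in limma with Benjamini-Hochberg adjustment over 26192 probe sets. By this rule 0 of 8 genes were called, against a background of 3.66% of all probe sets (1.06% higher and 2.6% lower). Those calls were 278 higher and 681 lower as deposited, a balance that turned to 593 and 381 with equal array medians and was 429 and 597 after a second quantile normalization. Before adjustment, at a p under 0.05 in limma, 4 of the 8 were higher and 0 lower, against 10.1% and 12.4% of all probe sets. The 4 became 2 without control 1, 6 with array weights and 7 with equal array medians. In 5 of the 8 genes every exposed array lay above every control, as in 14.6% of all probe sets. All 8 log2 changes were above 0 (atgl-1 by 0.02), as were 55.3% of all. The median over the 8 was 0.62, beside 0.05 over all probe sets. The members were chosen by name and not at random, and these counts describe them only.

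**Figure D1:**
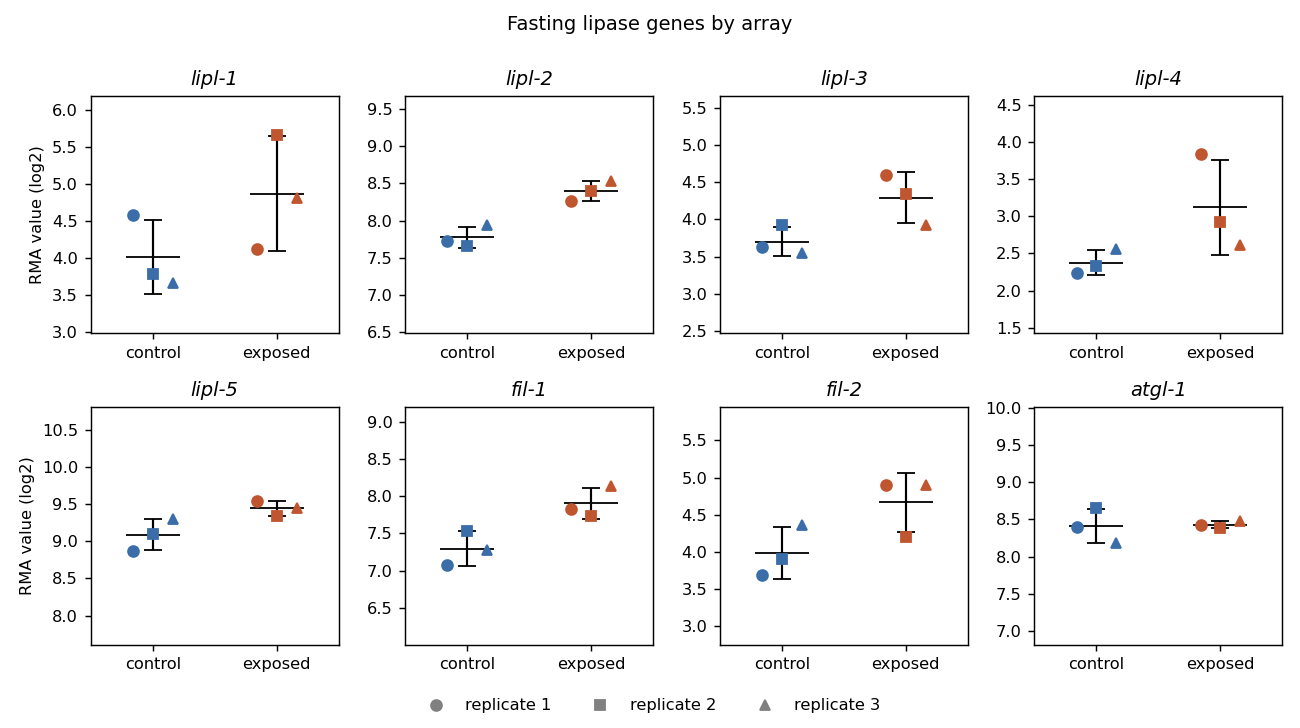
Deposited log2 RMA value of each fasting lipase gene (y axis, log2) in the 3 control and 3 exposed arrays. Symbols mark the replicate number, the long bar is the group mean and the error bar the SD (n = 3). Exposed arrays lie above all controls for lipl-2, lipl-3, lipl-4, lipl-5 and fil-1, and the groups overlap for lipl-1, fil-2 and atgl-1. Every panel spans the same number of log2 units, and heights are not comparable between genes.

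Across the series, array medians were 3.92 to 3.95 in controls and 3.64 to 3.88 in exposed arrays, so every exposed median lay below every control median. Over all probe sets, which are not independent of each other, r was 0.961 to 0.986 within groups and 0.931 to 0.957 between groups. Array weights in limma were 0.368 for control 3 and 0.483 for exposed 3, and at most 2.03 for the others. Setting all array medians equal moved the median change of all probe sets from 0.05 to 0.27.

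Among the lysosomal lipases, lipl-2 had the smallest p of all 8 genes. Its values were 7.73, 7.66 and 7.94 in controls 1 to 3 and 8.26, 8.40 and 8.53 in exposed 1 to 3. The lowest exposed array stood 0.33 above the highest control. The means were 7.78 ± 0.14 and 8.40 ± 0.13 (SD, n = 3), a log2 difference of 0.62 (SE 0.18, 95% interval 0.20 to 1.04) with an adjusted p of 0.100 in limma. With limma's array weights its adjusted p was 0.036, the only setting of 17 in which any of the 8 genes passed, and over all 17 it ranged up to 0.262.

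The gene lipl-5 had the smallest span over the 6 arrays among lipl-1 to lipl-5, 0.67. Controls read 8.87, 9.10 and 9.30, and exposed arrays 9.55, 9.34 and 9.45. The groups were separate by 0.04, between control 3 and exposed 2. The difference was 0.36 (SE 0.19, 95% interval -0.08 to 0.80, adjusted p = 0.310 in limma), so the interval includes 0 and a change of up to 1.73-fold.

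For lipl-3, a fasting-induced lipase under MXL-3 and HLH-30 control, values were 3.63, 3.92 and 3.54 in controls and 4.60, 4.35 and 3.93 in exposed worms. Exposed 3 lay only 0.0045 above control 2, so the groups barely separated. The estimate was 0.59 (SE 0.23, 95% interval 0.05 to 1.13, adjusted p = 0.187 in limma). In 3 of the 6 arrays this probe set read below the array's own median, where RMA compresses differences. In RefSeq (assembly WBcel235) the gene overlaps srw-107, a chemoreceptor-family gene, whose own probe set was at 2.12 ± 0.08 and 2.33 ± 0.17 (adjusted p = 0.547 in limma).

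The largest estimate belonged to lipl-1, which also had the widest spread of the 8 genes. Its controls read 4.58, 3.79 and 3.66 and its exposed arrays 4.12, 5.66 and 4.81. In controls 2 and 3 this probe set read below the array's own median. Exposed 1 lay below control 1, so the groups overlapped, and exposed 2 alone was the highest array by a clear margin. The difference was 0.85 (SE 0.42, 95% interval -0.14 to 1.84, adjusted p = 0.285 in limma). Leaving out exposed 2 brought it to 0.45, and leaving out exposed 1 to 1.22.

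The gene lipl-4, known in C. elegans for a lysosomal lipase that promotes longevity when raised in the intestine, was dim. Controls were at 2.24, 2.33 and 2.56, and exposed arrays at 3.84, 2.92 and 2.61. In 5 of 6 arrays the value was below the array's own median, and exposed 1 alone was above it. The groups were separate by 0.05, with a difference of 0.75 (SE 0.32, 95% interval -0.01 to 1.502, adjusted p = 0.226 in limma). Exposed 1 carried much of it: without that array the difference was 0.39. RefSeq places an ncRNA gene, K04A8.15, and a tRNA gene over lipl-4. The probe set of K04A8.15 was at 1.99 ± 0.18 and 2.49 ± 0.57 (adjusted p = 0.365 in limma), and which of these RNAs the lipl-4 probes read was not tested.

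The other numbered lysosomal lipases had estimates nearer 0. The lipl-7 probe set had means of 6.97 ± 0.20 and 6.93 ± 0.04 (log2 difference -0.03, adjusted p = 0.934 in limma), lipl-6 differed by -0.09 (adjusted p = 0.792) and lipl-8 by 0.25 (adjusted p = 0.513). Groups overlapped in all 3. Their intervals reached 0.39 for lipl-7, 0.30 for lipl-6 and 0.73 for lipl-8, so each overlaps those of lipl-1 to lipl-5. Whether they differ from these was not tested. With equal array medians lipl-6 and lipl-7 turned to positive estimates of 0.13 and 0.18.

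Both fasting-induced lipase genes had estimates like those of lipl-2 and lipl-3. For fil-1, the values in controls were 7.08, 7.54 and 7.27, and those in exposed worms 7.83, 7.73 and 8.14. The groups were separate by 0.20, and exposed 3 was highest. The difference was 0.61 (SE 0.21, 95% interval 0.12 to 1.09, adjusted p = 0.145 in limma).

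For fil-2 the values were 3.68, 3.91 and 4.37 in controls and 4.89, 4.21 and 4.90 in exposed worms. In controls 1 and 2 this probe set read below the array's own median. Exposed 2 lay below control 3, so the groups overlapped, while exposed 1 and 3 were nearly equal and above all controls. The difference was 0.68 (SE 0.27, 95% interval 0.04 to 1.32, adjusted p = 0.201 in limma). It was 0.91 without exposed 2 and 0.53 without control 1.

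The droplet lipase gene atgl-1 was at 8.40, 8.65 and 8.19 in controls and at 8.42, 8.39 and 8.49 in exposed worms. All 3 exposed arrays lay inside the range of the controls. The difference was 0.02 (SE 0.19, adjusted p = 0.969 in limma), with a 95% interval of -0.42 to 0.46, or 0.747-fold to 1.37-fold. Its sign turned with array weights, with a second quantile normalization, without both arrays numbered 3, without control 3 and without exposed 3. Whether atgl-1 differed from the other 7 genes was not tested.

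The exposed arrays did not rank alike across the 8 genes. Exposed 1 was the highest exposed array for 3 genes (lipl-3, lipl-4 and lipl-5), exposed 2 for lipl-1 alone, and exposed 3 for 4 (lipl-2, fil-1, fil-2 and atgl-1). Exposed 1 and 2 each stood above all controls in 6 of the 8 genes and exposed 3 in 7. The share of all probe sets was not computed for single arrays, so these counts have no background. For all 3 exposed arrays together it was 14.6%. Averaged over the 8 genes, control arrays were at 5.78 to 5.86 and exposed arrays at 6.36 to 6.44, while the averages over all probe sets were 4.72 to 4.74 and 4.70 to 4.72. Over the 17 alternatives the estimates of all genes but atgl-1 stayed positive wherever the gene was tested, from 0.25 for lipl-5 to 1.22 for lipl-1.

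**Figure D2:**
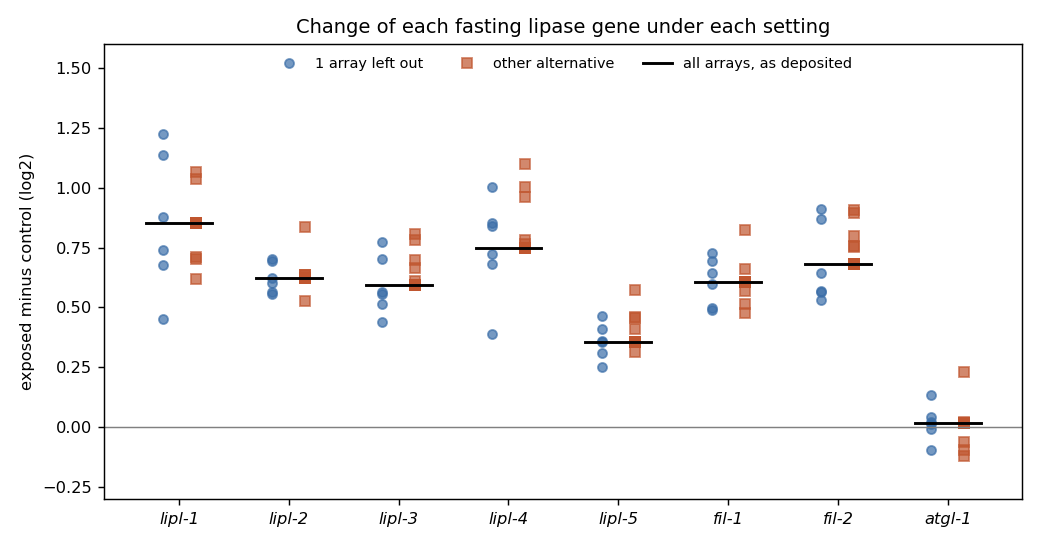
Exposed minus control difference (y axis, log2) of each fasting lipase gene under every setting. The black bar is the fit on all arrays as deposited, circles leave out 1 array each and squares are the other alternatives. The gene lipl-1 spans 0.45 to 1.22 and lipl-4 spans 0.39 to 1.10, while atgl-1 lies on both sides of 0.

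In RefSeq, 7 of the 8 genes share chromosome V, and atgl-1 lies on chromosome III. None neighbour each other. The closest pair, lipl-3 and lipl-5, has 42 protein-coding genes between them, and lipl-4 and fil-2 have 52.

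Some members of a second lipase family fell. The lips genes encode predicted lipases of another class, and 16 were measured. Of these 3 fell, 0 rose and 13 did not pass, with a median log2 change of -0.14 (all probe sets 0.05). Over all probe sets 2.6% fell and 1.06% rose. In 5 of the 16 every exposed array lay below every control, as in 13.5% of all probe sets. In 0 of the 16 every exposed array lay above, as in 14.6% of all. Some of the 16, such as lips-2 and lips-8, read below the array's own median in all 6 arrays. For lips-6 the controls read 6.45, 7.42 and 5.19 and the exposed arrays 3.08, 3.998 and 3.27. All exposed arrays were lower, and control 3 was the nearest control. The difference was -2.90 (SE 0.54, 7.46-fold lower, adjusted p = 0.037 in limma). In exposed 1 and 3 this probe set read below the array's own median, as did that of lips-3. The gene lips-3 had means of 6.12 ± 0.11 and 4.004 ± 0.90 (4.32-fold lower, adjusted p = 0.043) and lips-10 of 7.03 ± 0.33 and 5.47 ± 0.51 (2.95-fold lower, adjusted p = 0.042). The calls of lips-6 and lips-10 were lost without any of control 1, control 2, exposed 1, exposed 2 or exposed 3, and that of lips-3 without any array but exposed 2, the highest adjusted p being 0.140, and all 3 stayed lower. The call of lips-3 was also lost in 5 of the other 11 alternatives, and that of lips-10 with controls 2 and 3 averaged. Whether the lips genes differ as a group from the fasting lipases was not tested.

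**Figure D3:**
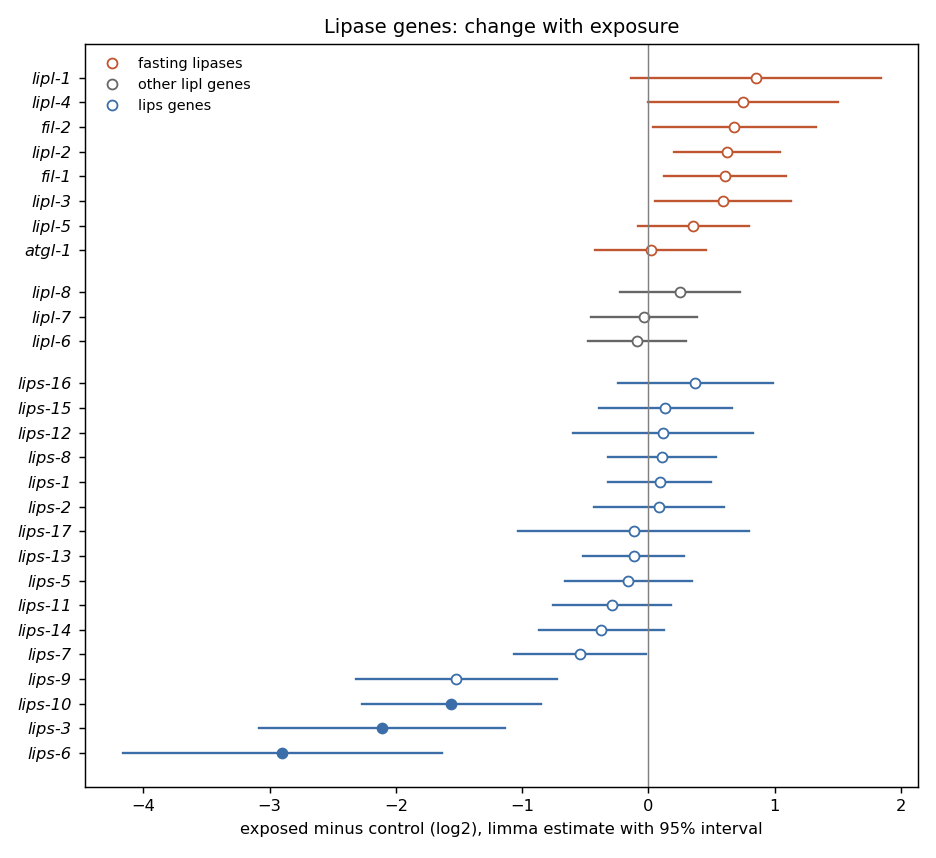
Exposed minus control difference (x axis, log2) with its 95% interval for the 8 fasting lipases, the 3 other lipl genes and the 16 lips genes. Filled circles passed the adjusted threshold and open circles did not. All 8 fasting lipases are open and lie from 0.02 to 0.85, and the filled points are lips-6, lips-3 and lips-10, all below 0.

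Known regulators of these lipases were measured as 26 genes, of which 1 rose and 3 fell. Over all probe sets 1.06% rose and 2.6% fell. The median log2 change of the list was -0.26 (all probe sets 0.05), 5 of 26 estimates were above 0, and 55.3% of all probe sets were. The largest fall was in mxl-3, which encodes the repressor of lipl genes in fed worms. Its values were 9.38, 9.98 and 9.43 in controls and 8.06, 7.50 and 8.32 in exposed worms. Every exposed array was at least a full log2 unit below every control. The difference was -1.63 (SE 0.28, 95% interval -2.28 to -0.98, 3.10-fold lower) with an adjusted p of 0.029 in limma. This call was lost without any of control 1, control 2, exposed 1, exposed 2 or exposed 3 (adjusted p up to 0.105), with the same direction.

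The partner regulator hlh-30, the TFEB homolog that activates lipl genes on fasting, did not pass. It was at 8.09, 8.37 and 7.96 in controls and 7.61, 7.47 and 7.62 in exposed worms. All exposed arrays were below the controls, with a difference of -0.57 (SE 0.18, adjusted p = 0.131 in limma). The gene hlh-30 passed in 1 of the 17 alternatives (adjusted p = 0.047 in limma), with the same direction in all 17. Its protein is controlled largely by movement between cytoplasm and nucleus, which arrays do not read. The exportin gene xpo-1 differed by 0.41 (adjusted p = 0.300).

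On the endoplasmic reticulum side, hsp-4 rose. This gene encodes a BiP chaperone, linked with IRE-1 to the induction of fil-1 and fil-2. Controls were at 6.97, 7.31 and 6.96 and exposed arrays at 8.18, 8.32 and 8.49. The groups were well apart, with a difference of 1.25 (SE 0.19, 95% interval 0.80 to 1.70, 2.38-fold higher, adjusted p = 0.022 in limma). The call was lost without any of control 1, control 2, exposed 1 or exposed 3 (adjusted p up to 0.097). The sensor gene ire-1 was at 7.31 ± 0.39 and 7.56 ± 0.31 (log2 difference 0.25, adjusted p = 0.625). The probe set of hsp-4 may also read its close relative hsp-3, which was not tested.

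Among kinase and coactivator genes, kin-1 fell. It encodes the catalytic subunit of protein kinase A, which acts on lipolysis at droplets. Its means were 7.41 ± 0.32 and 6.18 ± 0.22 (2.35-fold lower, adjusted p = 0.037 in limma). The regulatory subunit gene kin-2 was at 8.37 and 7.59 without passing (adjusted p = 0.075). The CREB coactivator gene crtc-1 fell as well, with means of 8.21 ± 0.06 and 7.23 ± 0.27 (1.98-fold lower, adjusted p = 0.045). Both calls were lost without any of control 1, control 2, exposed 1, exposed 2 or exposed 3 (adjusted p up to 0.151). That of kin-1 was also lost with equal array medians, and that of crtc-1 in 6 of the other 11 alternatives.

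The nuclear receptor and FOXO genes of this network did not pass. The log2 differences were -0.22 for nhr-49, a regulator of fatty acid use in fasting, -0.48 for nhr-80, which acts downstream of lipl-4, and -0.32 for daf-16, the FOXO factor (adjusted p = 0.554, 0.288 and 0.407 in limma). For hlh-11, a repressor of atgl-1, the difference was -0.53 (adjusted p = 0.294), with exposed 1 inside the range of the controls.

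**Figure D4:**
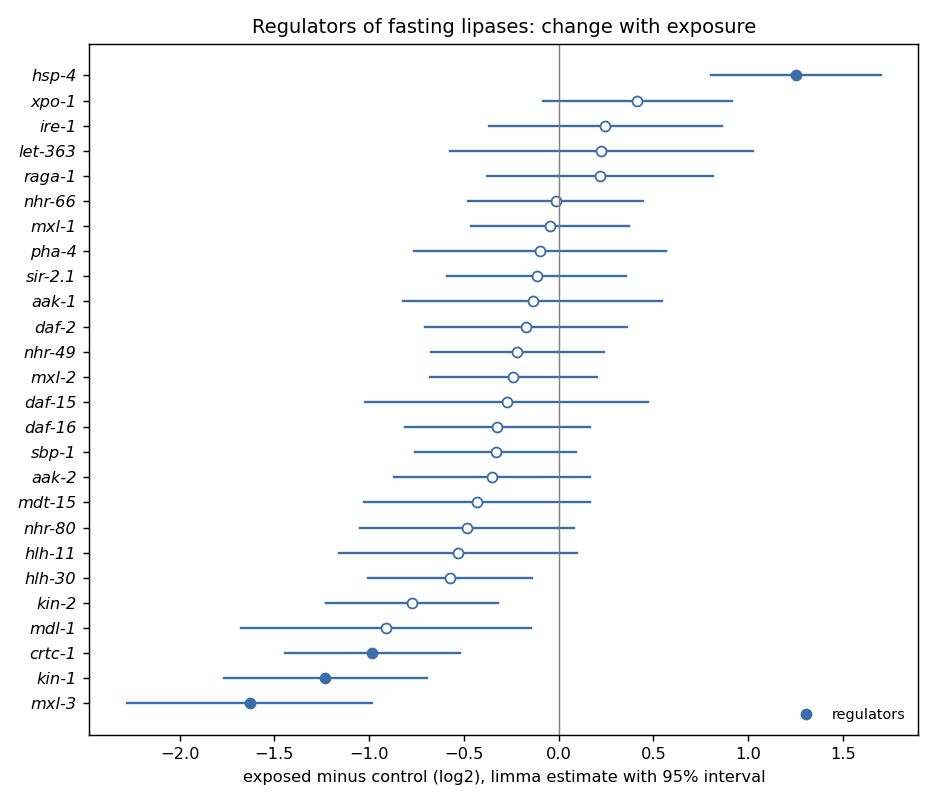
Exposed minus control difference (x axis, log2) with its 95% interval for 26 regulator genes. Filled circles passed the adjusted threshold: hsp-4 at 1.25 above 0, and crtc-1, kin-1 and mxl-3 between -0.98 and -1.63 below it.

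**Figure D5:**
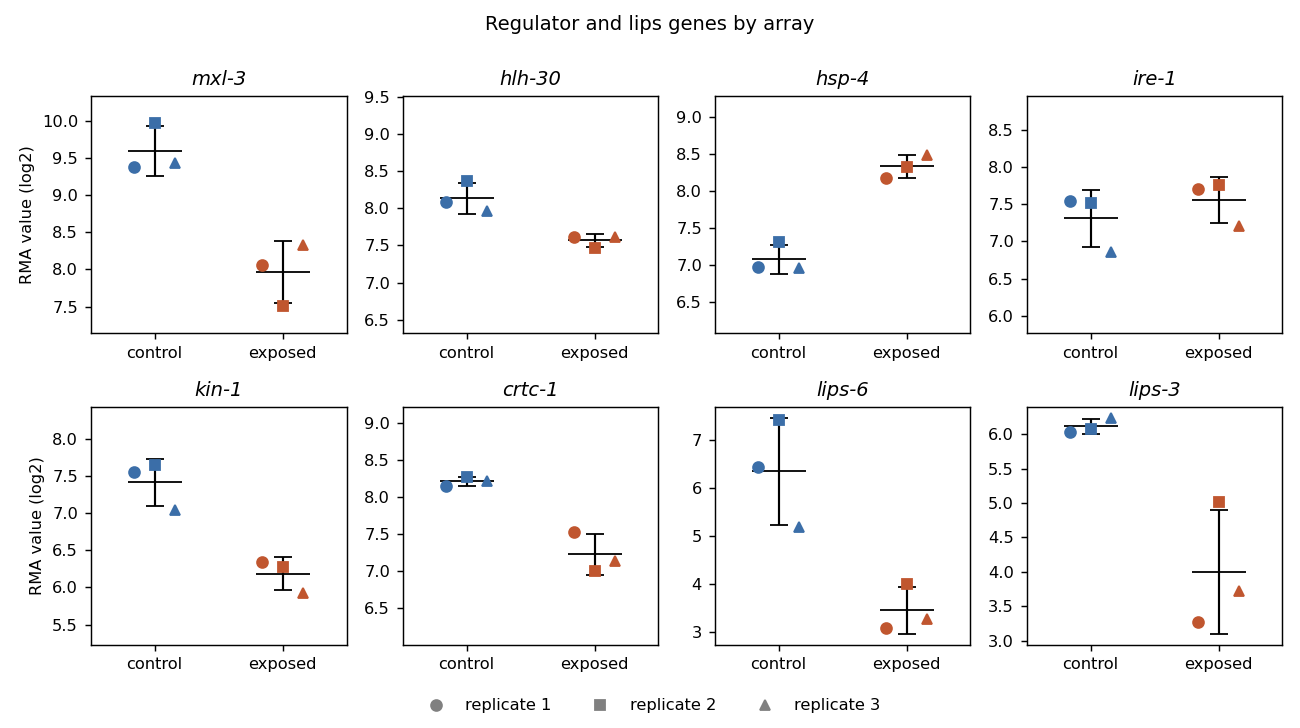
Deposited log2 RMA values (y axis) of 6 regulator genes and 2 lips genes in the 3 control and 3 exposed arrays, with symbols for the replicate number, group means and SD (n = 3). The groups are apart in all panels except ire-1, where exposed 3 lies below controls 1 and 2. The axis range differs for lips-6 and lips-3, and heights are not comparable between genes.

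Partners of atgl-1 at the lipid droplet were measured as 10 genes, and 0 passed in limma, beside 3.66% of all probe sets. Without adjustment 4 were higher and 0 lower (p under 0.05; 10.1% and 12.4% of all probe sets), and the median was 0.34, beside 0.05 over all. The gene lid-1 encodes the CGI-58 homolog that holds ATGL-1 at droplets. It was at 7.21, 7.05 and 6.76 in controls and 7.44, 7.61 and 7.62 in exposed worms, all exposed arrays above the controls (log2 difference 0.55, adjusted p = 0.151). The perilipin gene plin-1 and the triglyceride synthesis gene dgat-2 differed by 0.51 and 0.70 (adjusted p = 0.194 and 0.137), also with separate groups. In 4 of the 10 genes every exposed array lay above every control, as in 14.6% of all probe sets. Groups overlapped in the other 6. Of the 10 estimates 7 were positive and 3 negative, and 55.3% of all were positive. The hormone-sensitive lipase gene hosl-1 differed by -0.08 (adjusted p = 0.873), a sign that turned with equal array medians and with a second quantile normalization.

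Of 9 lipid-binding protein genes, which encode fatty acid carriers, 0 passed in limma, beside 3.66% of all probe sets. Without adjustment 0 were higher and 0 lower (p under 0.05; 10.1% and 12.4% of all probe sets). The median was 0.26, beside 0.05 over all. The carrier gene lbp-8, which acts downstream of lipl-4, was dim at 2.24 ± 0.11 and 2.56 ± 0.16 (adjusted p = 0.344). Of 12 fatty acid genes that respond to feeding state, 0 passed in limma, beside the same 3.66%. Without adjustment 1 was higher and 1 lower (p under 0.05; 10.1% and 12.4% of all probe sets), and the median was 0.02. The acyl-CoA synthetase gene acs-2 is strongly induced by fasting in C. elegans through NHR-49. It was at 8.57, 8.75 and 6.59 in controls and at 6.43, 5.79 and 6.06 in exposed worms. Control 3 lay close to the exposed arrays, and the difference of -1.88 (SE 0.55) had an adjusted p of 0.105 in limma. Without control 3 the adjusted p was 0.0074. The desaturase gene fat-7, which falls on fasting, was dim at 2.69 ± 0.54 and 3.01 ± 0.17 (adjusted p = 0.555 in limma). The probe set of the near-identical fat-6 was bright, at 10.77 in controls and 10.79 in exposed worms. Whether the fat-7 probes read any fat-6 RNA was not tested.

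Of 18 lysosome genes, 0 passed in limma, beside 3.66% of all probe sets. Without adjustment 1 was higher and 1 lower (p under 0.05; 10.1% and 12.4% of all probe sets). The median was -0.08 (all probe sets 0.05) and 8 estimates were positive (55.3% of all).

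Fasting lipases are known mainly from the intestine, and in whole worms more RNA per cell and more cells of a type cannot be told apart. Of 12 intestine markers 2 fell and 0 rose, with 4 positive and 8 negative estimates. Over all probe sets 2.6% fell, 1.06% rose and 55.3% of estimates were positive. Before adjustment 1 marker was higher and 5 were lower (p under 0.05 in limma), beside 10.1% and 12.4% of all probe sets. The mean level of the 12 markers was 6.69 to 7.10 in controls and up to 6.54 in exposed arrays, below every control. The marker pgp-1 was dim, below the array's own median in all 6 arrays. The acid phosphatase gene pho-1 was 6.37-fold lower (6.43 ± 0.84 to 3.76 ± 0.50, adjusted p = 0.027) and the intermediate filament gene ifb-2 was 2.23-fold lower (adjusted p = 0.029). The esterase gene ges-1 and the master regulator gene elt-2 differed by 0.66 and 0.58 without passing (adjusted p = 0.122 and 0.232). The calls of pho-1 and ifb-2 were lost without any of control 1, control 2, exposed 1 or exposed 3 (adjusted p up to 0.120), and that of ifb-2 also without exposed 2 and with equal array medians.

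Some markers of neurons, body wall muscle and sperm passed as well. Over all probe sets 2.6% fell, 1.06% rose and 55.3% of estimates were positive. Before adjustment 10.1% of all were higher and 12.4% lower (p under 0.05 in limma). Of 10 neuron markers 4 fell and 0 rose, with mean levels of 7.35 to 8.25 in controls and 6.52 to 6.57 in exposed arrays. Of 8 body wall muscle markers 3 fell and 0 rose (8.15 to 8.83 and 6.93 to 7.46). In all 10 neuron and all 8 muscle markers every exposed array lay below every control, as in 13.5% of all probe sets. Of 10 germline and oocyte markers 0 passed in limma, with 10 positive estimates (7.54 to 8.32 and 8.28 to 9.001) and 6 higher before adjustment (p under 0.05). Of 8 sperm markers 1 rose, gsp-3 (adjusted p = 0.0497), with list means of 2.96 to 3.11 and 3.30 to 3.61. That call was lost without each array in turn and kept in 4 of the 10 other alternatives that tested it. Of 7 hypodermis markers 0 passed in limma (5.62 to 5.97 and 5.32 to 5.84), with 0 higher and 2 lower before adjustment (p under 0.05). Without any of control 1, control 2 or exposed 1 no marker of neurons, muscle or intestine was called (0 each). Without control 3 the calls were 9, 5 and 6, and of the 6 for intestine 1 was higher and 5 were lower. Without exposed 3 they were 2, 0 and 0, and without exposed 2 they were 2, 2 and 1. The part of these shifts in the lipase, lips and regulator values was not tested.

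Genes whose 6 array values were most like those of a fasting lipase were found for the 5 members that span at least 1 log2 unit. Likeness was the root-mean-square difference between values centred on their mean over the 6 arrays, among genes with a mean of at least 5. The nearest to fil-1 were misc-1 (0.062) and lab-1 (0.067). For lipl-3 they were npp-7 (0.076) and W02D9.2 (0.081), and for fil-2 they were M04D5.3 (0.098) and F55B11.3 (0.108). The dim gene lipl-4 was nearest to pqn-82 (0.151) and srw-86 (0.162), and lipl-1 to dnj-27 (0.297) and nefr-1 (0.327). Of these 10 genes 0 passed the adjusted threshold in limma (adjusted p from 0.103 to 0.395), beside 3.66% of all probe sets. They were picked from the same 6 arrays for likeness to members that did not pass, so this outcome was largely set by the choice.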

How the data were processed

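Per the submitters' processing notes, the authors made the deposited log2 values with RMA in Affymetrix Expression Console (background correction, quantile normalization and probe set summary). The sources used here give neither versions nor a genome build, and no coordinates are printed. That values are log2 was taken from their range. Of 29317 probe sets, the 26192 with a gene in the platform annotation were tested, and 3125 without one were left out. All 8 members matched NCBI RefSeq (WBcel235) by gene identifier and symbol.

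Exposed and control arrays were compared for every probe set in limma 3.58.1 under R 4.3.3 (lmFit, then eBayes without trend). Tests were two-sided, p-values were adjusted after Benjamini-Hochberg over all 26192, and the threshold was 0.05. Named genes were all 8 members, up to 4 called genes of each list, 18 genes fixed by name and the 2 nearest profiles of each member spanning at least 1 log2 unit. The genes kin-2, xpo-1, plin-1, dgat-2, lbp-1, cpl-1, srw-107 and K04A8.15 fall outside this rule and were named after their values were seen. With 3 arrays per group an exact two-sided permutation test of 1 gene cannot go below 0.1, so none was used. The number of arrays limits the precision. Members, 7 pathway lists and 6 marker lists were chosen with earlier results of these data known. The procedure was tested on simulated data, where most 2-fold changes were missed. Fewer probe sets were changed there than were called here, so that recovery does not carry over to these arrays. A gene that did not pass still cannot be taken as unchanged, because its interval can include large changes. That of lipl-1 ran from -0.14 to 1.84 in log2. 1 control is numbered 3 in its title and 2 in its source label, and the title was followed. The 17 alternatives covered moderation, weights, scaling, filters, averaging, a replicate block and left-out arrays. Promoter motifs and protein sequences were not analysed here.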

Additional observations from a re-analysis of the deposited data

How the results depend on the processing

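The number of probe sets called, 959 as deposited, was 3473 with array weights and 2317 without both arrays numbered 3, and it ranged from 49 (without exposed 1) to 1996 (without control 3) when 1 array was left out. Array weights also brought the number of fasting lipases called from 0 to 1, lipl-2 with a difference of 0.63 (adjusted p = 0.036); no other alternative called any. The estimate of atgl-1 turned to -0.062 with array weights, -0.10 with a second quantile normalization and -0.12 without both arrays numbered 3, and ranged from -0.10 to 0.14 with 1 array left out. The cause was not tested. The filter on dim probe sets removed lipl-4.

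Among lists, regulators called went from 4 to 2 with equal array medians and 0 to 5 with 1 array left out. With array weights 6 were called, and with a second quantile normalization 5. For lips genes the 3 calls went to 1 with controls 2 and 3 averaged and 0 to 2 with 1 array left out. The other lists, with 0 calls, gained 1 for the lipid-binding proteins (lbp-1) without both arrays numbered 3, and 1 for the fatty acid genes (acs-2) with array weights, with controls 2 and 3 averaged and without both arrays numbered 3; each had 0 to 1 with 1 array left out. Lysosome genes gained 1 (cpl-1) with array weights and with equal medians. Signs turned for hosl-1 (0.13 with equal medians, with a second quantile normalization and without exposed 3, 0.008 without both arrays numbered 3, and -0.232 to 0.131 over the fits without 1 array), lipl-6 (0.13 with equal medians, 0.028 with a second quantile normalization) and lipl-7 (0.026 with array weights, 0.18 with equal medians, 0.077 without both arrays numbered 3, and -0.142 to 0.054 over the fits without 1 array). Of 17 named list genes called, 17 kept their direction in every alternative that tested them, 6 kept their call in all 11 alternatives that leave out no single array, and 0 kept it without each array in turn.

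With the replicate block, regulators called went to 2 (kin-1 and hsp-4); mxl-3, crtc-1, ifb-2, rab-3 and gsp-3 lost their calls (adjusted p = 0.0561, 0.0625, 0.0505, 0.0530 and 0.0741), and the estimates of the fasting lipases, 0.02 for atgl-1 to 0.85 for lipl-1, did not move. Deviations of same-numbered arrays correlated with 0.141, 0.0791 and 0.251, so the numbers were not taken to pair the samples, and 2 of 3 controls correlated best with their own number. Scanner files were not used here, so other background corrections were not tried. The motif search listed among the alternatives was not run.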
